A study of Mus musculus with 5 samples.

Results

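The class III receptor tyrosine kinases and their ligands were followed by name through 5 RNA sequencing libraries of MN1-transformed mouse progenitors with and without Mll1. The 8 genes, the receptors Flt3, Kit, Csf1r, Pdgfra and Pdgfrb and the ligands Flt3l, Kitl and Csf1, were taken by their symbols from tables of 31626 genes, and each symbol named 1 row. The cells were common myeloid progenitors of C57Bl/6 mice, progenitors of granulocytes, monocytes, red cells and platelets, that had been transformed with MSCV-MN1-IRES-GFP, a retroviral vector expressing the leukaemia gene MN1 together with GFP. All groups carried MN1: the 3 control libraries came from Mll1 flox/flox cells transduced with a control, and the 2 knockout libraries from cells transduced with Cre and given as Mll1 -/- by the labels. Both were sorted on day 7 after transduction. No cells with intact Mll1 that had received Cre are analysed here, so effects of Cre and of Mll1 loss cannot be told apart. The culture medium held serum, IL3, IL6 and SCF in every group. SCF, stem cell factor, is the protein that Kitl encodes; the labels name neither FLT3 ligand nor CSF1 among the additives. Mll1, now named Kmt2a, is the gene of an enzyme that methylates histone H3, and the comparison asks what its loss does to gene expression in MN1-driven cells. Whether the replicates were separate mice or cultures is not stated in the labels, so the p-values reflect spread among these libraries alone, and that spread may be technical.

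Class III receptors share an extracellular part made of immunoglobulin-like domains and a kinase split by an insert. A dimeric ligand brings receptor molecules together, they phosphorylate each other, and adaptor proteins then start the RAS and MAP kinase, PI3K and AKT, and STAT5 pathways. In blood formation FLT3 acts in early multipotent and lymphoid-primed progenitors and in dendritic cells, KIT in stem cells, myeloid and erythroid progenitors and mast cells, and CSF1R in monocytes and macrophages, while the PDGF receptors are best known from mesenchymal cells. FLT3 and KIT are also frequent sites of activating mutation in acute myeloid leukaemia.

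Values are FPKM, fragment counts scaled by gene length and by the total mapped in a library, so levels can be compared between genes. Absolute depth is unknown, because FPKM files hold no counts. The worth of 1 read, judged from the steps between low values, lay between 0.980 and 1.018 times that in control replicate 1. That search covered only ratios near 1, so it could not show a large difference in depth. Log2 changes compare knockout with control after adding 1 FPKM to each value, which makes changes of weakly expressed genes look smaller. They were tested with limma across the 11780 genes that reached 1 FPKM in at least 2 libraries. A gene could pass this filter through 1 group alone, the group where it was higher. A gene was called at a Benjamini-Hochberg adjusted p under 0.05. Mll1 itself measured 9.67, 7.28 and 7.19 FPKM in control cells, against 6.22 and 5.32 FPKM in knockout cells (two-sided exact permutation p = 0.1, the smallest that 10 splits allow). The labels do not say which exons were floxed, so a whole-gene value does not check the deletion. Control replicate 1 stood apart from the other controls: the summed level of 9 neutrophil markers was 6398 FPKM there, 787 and 1050 FPKM in the other controls, and 22407 and 20673 FPKM in the knockouts. Most of that sum was S100a8 and S100a9, and the list was not uniform. Mmp8 was lowest in control replicate 1, and Ngp, Ltf and Camp were higher there than in the knockouts. With all libraries only Lcn2 of the 9 markers was called, as higher (11.1% called, against 9.79% of all genes tested). Against control replicates 2 and 3 alone, knockout means were from 3.18-fold (Lcn2) to 27.9-fold (S100a9) higher for all but Mmp8, at 0.827 times. Counts of the signalling, receptor, sheddase and transcription factor lists are also given without control replicate 1. So are the changes of Csf1r and of the tested members. Counts of the marker lists are given with all libraries only.

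The plot of levels by library shows Flt3 and Kit abundant in the controls and Flt3 much lower in the knockouts. In the controls Flt3 (83.5 to 96.3 FPKM) and Kit (64.6 to 112 FPKM) were the highest members, and their ranges overlapped. Flt3l followed at 8.18 to 9.08 FPKM, then Pdgfrb at 2.26 to 2.81 FPKM. Csf1 at 1.25 to 2.76 FPKM overlapped both Pdgfrb and Csf1r, which ranged from 0.183 to 1.96 FPKM. Pdgfra (0.0490 to 0.144 FPKM) and Kitl (0.00509 to 0.0264 FPKM) were lowest and did not overlap each other. In the knockouts the order was Kit, Flt3, Flt3l, Csf1, Pdgfrb, Csf1r, Pdgfra and Kitl, and no neighbours in it overlapped, with 2 libraries behind each range.

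**Figure D1:**
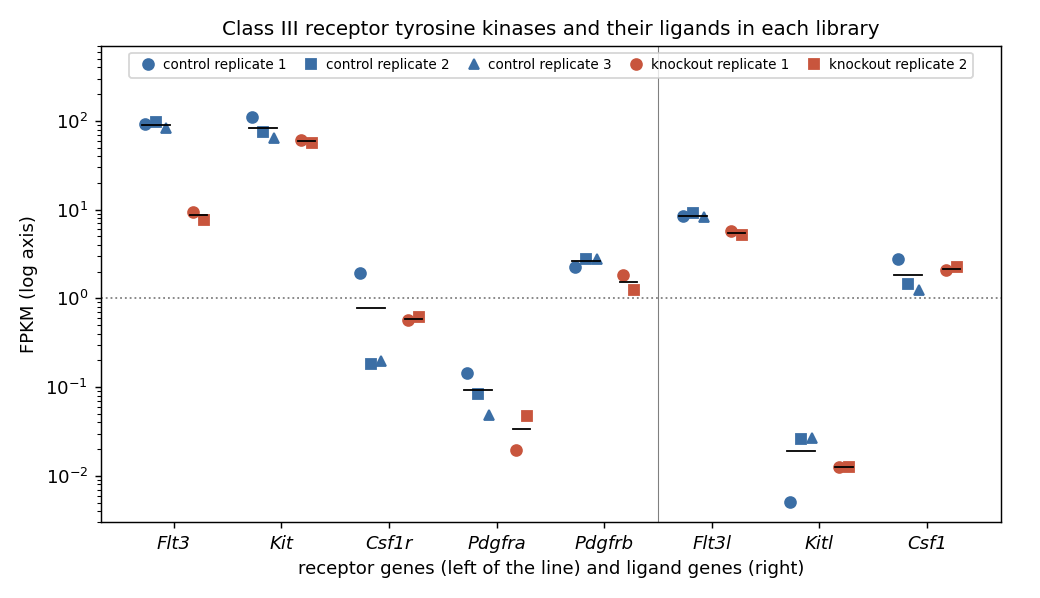
Level of each receptor and ligand gene in every library, in FPKM on a log axis; blue points are the 3 control and red points the 2 knockout libraries, black lines are group means, and the dotted line marks 1 FPKM, the level of the filter. Flt3 lies between 83.5 and 96.3 FPKM in control cells, against 9.51 and 7.69 FPKM in knockout cells, while Kit does not go below 57.1 FPKM in any library.

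Of the 8 genes, 5 passed the filter on low values (Flt3, Kit, Pdgfrb, Flt3l and Csf1) and 3 did not (Csf1r, Pdgfra and Kitl). Flt3 and Flt3l were called lower in the knockouts and none was called higher; 9.79% of all genes tested were called, 5.97% as lower and 3.82% as higher. Higher calls were 39.0% of all calls, and 50.9% after a correction for transcript length and GC content that was added after seeing the data. In 4 of the 5 tested genes both knockout libraries lay below every control, an arrangement found in 29.4% of all genes tested, and in none were both above every control (22.9% of all genes tested). The median change was -0.52 for the 3 receptors tested and -0.19 for the 2 ligands, against -0.028 over all genes tested.

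Flt3 fell from near the top of the expressed genes to below their middle. It measured 93.3, 96.3 and 83.5 FPKM in control cells, against 9.51 and 7.69 FPKM in knockout cells. The lowest control was far above the higher knockout, and control replicate 1 lay between the other controls. The log2 change was -3.26 ± 0.12 (SE; 95% interval -3.57 to -2.96; limma adjusted p = 0.00362), 10.6-fold in the mean FPKM. Only 13 of the 11780 genes had a more negative change, and the share of tested genes below Flt3 went from 90.3% in the controls to 39.0% in the knockouts. Without control replicate 1 the change was -3.25. Without knockout replicate 2 it was -3.13 and the adjusted p 0.0517, at a setting in which no gene of the table was called and 1669 had an unadjusted p under 0.05. The transcript was reduced and still detected in both knockouts. In bulk RNA, fewer Flt3-expressing cells and less Flt3 RNA per cell cannot be told apart. Flt3 overlaps Gm26597, an antisense gene on the opposite strand in GENCODE M21 with no row under that name in the tables used here, and the use of strand in the counting is not given in the sources used here.

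The promoters of the pair of abundant receptors, Flt3, which fell, and Kit, which was not called, are shown for comparison because MLL1 has a CXXC zinc finger that binds CpG sites lacking methylation. Each line gives the 250 bases before the annotated start, 5′ to 3′ on the strand of the gene, with CpG dinucleotides in capitals, from RefSeq on GRCm38.p6; the deposited values were made on mm9, and no coordinate was moved between builds. Flt3 lies on the minus strand (chr5:147400490-147400739) and Kit on the plus strand of the same chromosome (chr5:75574737-75574986).
Flt3: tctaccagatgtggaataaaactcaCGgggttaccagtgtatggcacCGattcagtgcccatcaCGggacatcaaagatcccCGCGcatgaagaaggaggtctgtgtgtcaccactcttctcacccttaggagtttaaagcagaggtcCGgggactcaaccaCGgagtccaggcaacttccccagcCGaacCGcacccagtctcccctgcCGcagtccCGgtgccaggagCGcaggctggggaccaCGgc
Kit: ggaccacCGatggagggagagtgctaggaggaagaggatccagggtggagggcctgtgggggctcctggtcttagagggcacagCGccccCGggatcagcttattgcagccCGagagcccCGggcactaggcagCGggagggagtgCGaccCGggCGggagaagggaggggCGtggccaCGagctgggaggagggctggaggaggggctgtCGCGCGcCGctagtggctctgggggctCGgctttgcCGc
The Flt3 sequence held 13 CpG at 59.2% G and C, and the Kit sequence 17 CpG at 70.8%. Over the first listed promoter of 27025 genes the median was 6 CpG; 31.8% had at least as many as Flt3 and 23.6% at least as many as Kit. In these windows both belonged to the CpG-richer part of all promoters. Bases after the start were not counted, methylation was not measured, and a link of CpG number to the changes was not tested. Short motifs were searched on both strands. The RUNX core AACCAC, present in 10.9% of all promoter windows of this length, occurred 1 time in Flt3 and not in Kit. The PU.1 core GAGGAA, present in 23.1%, occurred 1 time in Kit and not in Flt3. The MEIS motif TGACAG, present in 16.0%, and the GATA core GATAA, present in 23.0%, occurred in neither window. These are matches of letters, and binding was not measured.

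Kit, the receptor for SCF, stayed abundant. It measured 112, 75.4 and 64.6 FPKM in control cells, against 61.0 and 57.1 FPKM in knockout cells. Both knockouts were below every control, but the gap to control replicate 3 was small beside the spread of the controls, which was 24.6 FPKM (SD, n = 3). The log2 change was -0.46 ± 0.24 (SE; 95% interval -1.07 to 0.15; limma adjusted p = 0.266), so both a fall and no change lie within the interval. Control replicate 1 carried much of this difference: it was at 1.59 times the mean of the other controls, and without it the change was -0.24 (adjusted p = 0.135). Kit remained above 83.5% of tested genes in the knockouts, against 89.4% in the controls.

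The balance of both receptors within a library does not depend on library scaling. Flt3 per unit of Kit was 0.837, 1.28 and 1.29 in the controls and 0.156 and 0.135 in the knockouts. Kit thus went from 1.20, 0.783 and 0.774 times the level of Flt3 to 6.41 and 7.43 times. The log2 ratio of Flt3 to Kit differed by -2.94 between the groups, with SDs of 0.36 (n = 3) and 0.15 (n = 2), and the two-sided exact permutation p was 0.1, the smallest that 10 splits allow (0.2 adjusted over the 2 ratios tested). Leaving out each library in turn moved the difference between -3.15 and -2.83. Flt3 per unit of the row named Flt3l, whose gene model is uncertain as described with the ligands, was a ratio added after the values were seen and not tested. It was 11.1, 10.6 and 10.2 in the controls and 1.67 and 1.49 in the knockouts.

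**Figure D2:**
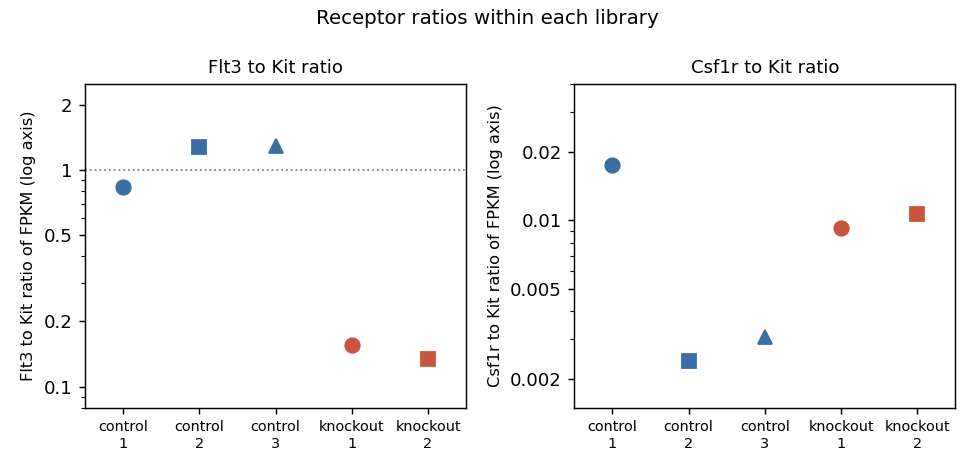
Ratio of the FPKM of Flt3 to Kit (left) and of Csf1r to Kit (right) in each library, on log axes; blue points are control and red points knockout libraries, and the dotted line marks equal levels. The Flt3 to Kit ratio is between 0.837 and 1.29 in the controls and at 0.156 and 0.135 in the knockouts, whereas the knockout Csf1r to Kit ratios lie inside the range of the controls.

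Csf1r, the receptor of the macrophage growth factors CSF1 and IL-34, was low, and its control values were set apart by 1 library. It measured 1.96, 0.183 and 0.199 FPKM in control cells, against 0.563 and 0.613 FPKM in knockout cells. Control replicate 1 was 10.2 times the mean of the other controls, and the knockouts lay between that library and the others. It overlaps Hmgxb3 on the opposite strand in GENCODE M21. It did not pass the filter; with no filter the change was -0.023 (95% interval -1.29 to 1.25; limma adjusted p = 0.987). Against control replicates 2 and 3 alone the knockout mean was 3.08-fold higher. The ratio of Csf1r to Kit was 0.0176, 0.00242 and 0.00309 in the controls and 0.00924 and 0.0107 in the knockouts, a log2 difference of 0.97 (two-sided exact permutation p = 0.4, also 0.4 adjusted over the 2 ratios). Without control replicate 1 that difference was 1.86, where 6 splits allow no p below 0.333.

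Some monocyte and macrophage markers were, like Csf1r, higher in control replicate 1 than in the other controls, and others were not. The summed level of 10 of them, without Csf1r, was 267 FPKM in that library, 101 and 81.2 FPKM in the other controls and 305 and 267 FPKM in the knockouts. Emr1, the gene of the macrophage antigen F4/80, stood at 52.6 FPKM in control replicate 1 against 19.3 and 13.4 FPKM in the other controls and 14.2 and 16.1 FPKM in the knockouts. Ly6c2, a surface gene of monocytes and other myeloid cells, was 173 FPKM against 40.4 and 34.5 FPKM, and 267 and 225 FPKM in the knockouts. These 2 genes made up most of the sum. Mrc1, a macrophage lectin gene, was at 1.24 FPKM in control replicate 1 against 0.0617 and 0.137 FPKM. Control replicate 1 lay close to the other controls for Cd68 (21.6 against 20.99 and 16.7 FPKM), and within their range for Ccr2 (17.4 against 19.2 and 15.9 FPKM) and Cx3cr1 (0.616 against 0.726 and 0.445 FPKM). Other macrophage genes of the list were at or near 0: Marco was listed at 0 in all 5 libraries, and C1qa and C1qb did not exceed 0.125 FPKM. Emr1 and Cd68, in contrast, did not go below 13.4 FPKM in any library. Of the 11 markers 4 were tested and Ccr2, a chemokine receptor gene, was called, as lower (25.0%, against 9.79% of all genes tested). The part of such cells in the Csf1r values was not tested.

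The PDGF receptors, which bind platelet-derived growth factors, were near the bottom of the range. Pdgfrb measured 2.26, 2.81 and 2.75 FPKM in control cells, against 1.84 and 1.23 FPKM in knockout cells. Both knockouts were below every control, and the log2 change was -0.52 ± 0.16 (SE; 95% interval -0.93 to -0.10), with an unadjusted p of 0.0236 and a limma adjusted p of 0.108. Its adjusted p was 0.0337 with a weight for each library and 0.0549 without control replicate 1. Pdgfra was at most 0.144 FPKM, at 0.144, 0.0838 and 0.0490 FPKM in control cells, against 0.0197 and 0.0472 FPKM in knockout cells; with no filter its limma adjusted p was 0.421. Gm42802 and Gm42803 overlap it on the opposite strand in GENCODE M21. The small gap between 0.0472 and 0.0490 FPKM was the whole distance between the groups.

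Some genes of fibroblasts and stromal cells, in which PDGF receptors are usual, were at or near 0. Dcn and Lum, matrix proteoglycan genes, were listed at 0 in every library, Col3a1 did not exceed 0.0168 FPKM and Col1a1 did not exceed 0.111 FPKM. Col1a2 was highest in control replicate 1, at 0.475 FPKM. The sum of the 8 stromal markers other than the receptors was nevertheless 76.0 to 107 FPKM in control cells, against 26.95 to 35.6 FPKM in the knockouts. Most of it was Thy1 and Pdpn, surface glycoprotein genes that are also expressed outside stroma. Of the 4 markers of this list that were tested, Thy1 fell and Cxcl12, a chemokine gene, rose (50.0%, against 9.79% of all genes tested). Their means went from 45.3 to 4.30 FPKM and from 0.315 to 2.07 FPKM, and Cxcl12 passed the filter only through the knockouts. The part of such cells in the Pdgfrb values was not tested. Pdpn stood at 44.5 ± 8.91 (SD, n = 3) and 24.7 ± 5.13 FPKM (SD, n = 2), with a limma adjusted p of 0.0693.

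Among the ligands, the row named Flt3l was lower in the knockouts. It measured 8.44, 9.08 and 8.18 FPKM in control cells, against 5.70 and 5.15 FPKM in knockout cells. The groups were well apart and the spread within each was small, 0.466 FPKM (SD, n = 3) and 0.390 FPKM (SD, n = 2). The log2 change was -0.57 ± 0.094 (SE; 95% interval -0.82 to -0.33; limma adjusted p = 0.0308), 1.58-fold in the mean. A change of this size was not unusual, since 1085 of the 11780 genes had a more negative one. The call was lost with no filter on low values (adjusted p = 0.0704) and when any library other than control replicate 1 was left out, with adjusted p from 0.084 to 0.293; the log2 change stayed between -0.64 and -0.51 in those fits.

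The identity of that row carries a limit. The files pair the name Flt3l with the identifier ENSMUSG00000074129, which in GENCODE M21 belongs to the neighbouring ribosomal protein gene Rpl13a. A further gene model, Gm45713, overlaps both there. The files hold Rpl13a under another identifier, ENSMUSG00000003426, at 1793 ± 161 (SD, n = 3) and 1593 ± 17.1 FPKM (SD, n = 2), which was not called (limma adjusted p = 0.457). Which gene model was counted in the Flt3l row is not given in the sources used here, so fragments from the neighbouring models may be part of it. The nearest genes on the other side, Aldh16a1 and Pih1d1, were not called either (adjusted p = 0.71 and 0.376).

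Kitl was at the limit of detection. Its values were 0.00509, 0.0258 and 0.0264 FPKM in control cells, against 0.0127 FPKM in each knockout. After allowing for relative depth, control replicates 2 and 3 stood at 2 times and knockout replicate 2 at 1 times the value of knockout replicate 1. Single fragments would give such steps. Control replicate 1, however, stood at 0.392 times, which is not a whole step, so numbers of fragments cannot be read from these values. Differences at this level cannot be read as changes. The cells therefore held almost no transcript of the ligand that the medium supplied as protein.

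Csf1, the ligand of Csf1r, measured 2.76, 1.47 and 1.25 FPKM in control cells, against 2.08 and 2.25 FPKM in knockout cells. As for Csf1r, the knockouts lay between control replicate 1 and the other controls. The log2 change was 0.20 ± 0.25 (SE; 95% interval -0.44 to 0.84; limma adjusted p = 0.64), and 0.42 without control replicate 1 (adjusted p = 0.0537).

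**Figure D3:**
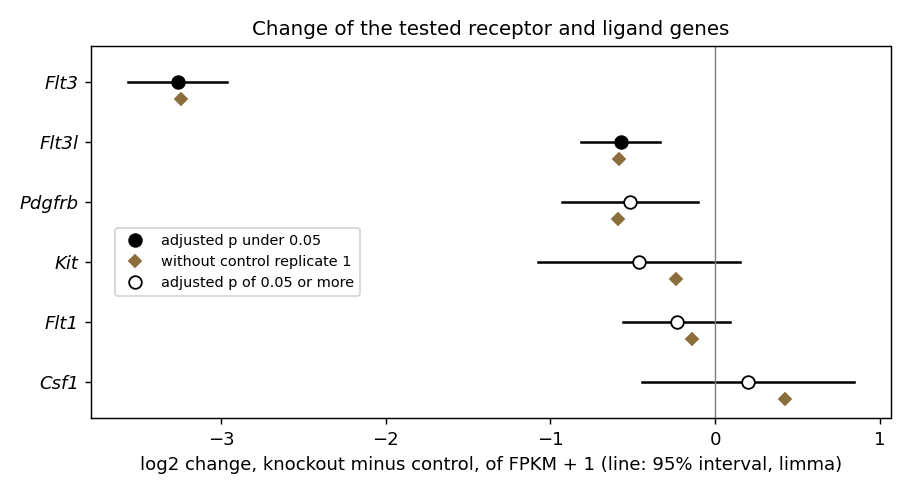
Log2 change between knockout and control of the 5 tested receptor and ligand genes and of the related receptor gene Flt1, on the log2(FPKM + 1) scale; circles are limma estimates with 95% intervals, filled where the adjusted p is under 0.05, and diamonds are estimates without control replicate 1. Flt3 at -3.26 lies far from the others, which range from -0.57 (Flt3l) to 0.20 (Csf1).

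The remaining ligands of these receptors were all under the filter. Il34, which encodes the other ligand of CSF1R, was listed at 0 in all 5 libraries. Pdgfc was the highest of the PDGF genes in the controls, at 0.603, 0.501 and 0.722 FPKM in control cells, against 0.157 and 0.120 FPKM in knockout cells. Pdgfb measured 0.214, 0.213 and 0.227 FPKM in control cells, against 0.164 and 0.0821 FPKM in knockout cells, and Pdgfa was at 0.186 FPKM or less in every library. Pdgfd was listed at 0 except for 0.0190 FPKM in control replicate 1.

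Of the VEGF receptors, the closest relatives of the class, Flt1 was expressed. It measured 31.3, 24.3 and 26.6 FPKM in control cells, against 21.8 and 24.2 FPKM in knockout cells, a log2 change of -0.23 (limma adjusted p = 0.286). Kdr, next to Kit on chromosome 5, did not exceed 0.0780 FPKM and Flt4 did not exceed 0.0198 FPKM. Of 40 other receptor tyrosine kinase genes 9 were tested, and with all libraries 0 were called higher and 2 lower, with a median change of -0.15. That is 22.2% called, against 9.79% of all genes tested. Without control replicate 1 the counts were 2 higher and 4 lower, where 29.8% of all genes tested were called. Igf1r and Met, the genes of the IGF1 and HGF receptors, had both knockouts above every control but were not called with all libraries (limma adjusted p = 0.115 and 0.0836). Ephb2, an ephrin receptor gene, fell from 6.67 ± 1.65 (SD, n = 3) to 1.09 ± 0.213 FPKM (SD, n = 2; limma adjusted p = 0.0163), and Ntrk2, a neurotrophin receptor gene, from 1.54 ± 0.254 to 0.00609 ± 0.00431 FPKM (adjusted p = 0.0165). Ntrk2 passed the filter only through the controls.

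The genes around Flt3 were read for comparison. The 2 nearest annotated genes on each side (Gm29778 and Urad, Gm6054 and Gm29793) have no row under these names in the tables used here. The nearest with a tested row, named after its values were seen, was Pan3, which encodes a subunit of a poly(A) nuclease. It measured 41.1, 39.6 and 40.4 FPKM in control cells, against 27.2 and 28.5 FPKM in knockout cells, with no overlap and a log2 change of -0.52 (limma adjusted p = 0.0196). Flt1, the next gene beyond Pan3, was not called, as given above. Further out on that side, Pomp was not called (limma adjusted p = 0.979). Slc46a3, beyond Pomp, was called lower (log2 change -0.58, limma adjusted p = 0.0327). Both were named after their values were seen. On the other side Cdx2 did not exceed 0.0520 FPKM and Pdx1 did not exceed 0.0144 FPKM.

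The profile of Flt3 over the 5 libraries was compared with those of other tested genes by the Euclidean distance between log2(FPKM + 1) values, each centred on its own mean. Pseudogenes and genes named only by a Gm number, a Rik name or a clone name were left out. The 5 nearest were Thy1, at a distance of 0.33, Lypd6b (0.422), Lrrc43 (0.427), Igfbp7 (0.649) and Nrgn (0.773). Thy1, a surface glycoprotein gene, measured 51.7, 49.2 and 34.96 FPKM in control cells, against 4.82 and 3.78 FPKM in knockout cells. Nrgn, which encodes a calmodulin-binding protein, was steady among the controls, like Flt3, at 70.0, 75.6 and 72.5 FPKM, and lower in the knockouts, at 12.04 and 10.7 FPKM. Lypd6b ended at 0.82 FPKM in both knockouts and Lrrc43 at 0.0134 FPKM and 0, so on this scale a like distance covers different folds. Lypd6b and Lrrc43 passed the filter only through the controls. The genes nearest to Kit were Col4a2 (0.0567), Ogt (0.0759), Zfc3h1 (0.0989), Fbxo10 (0.1) and Tmcc2 (0.112), all highest in control replicate 1 and none called. With 5 libraries in 2 groups many genes share a shape, and the distances are a description.

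**Figure D4:**
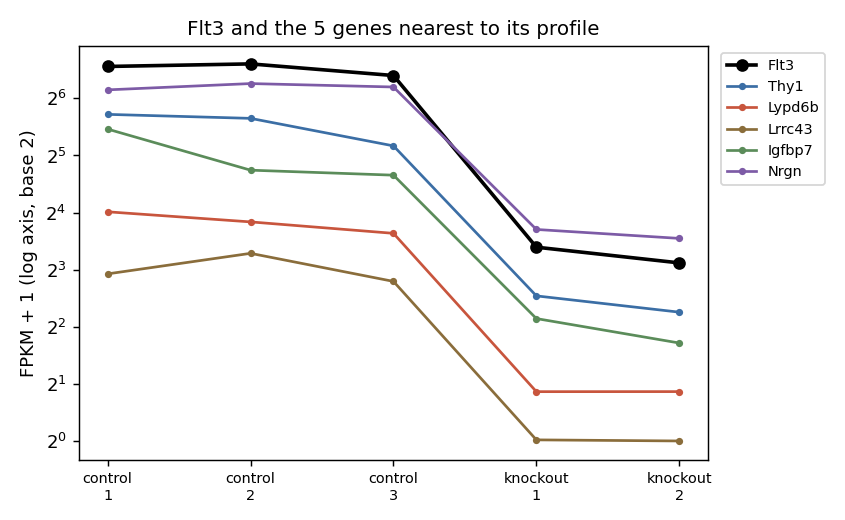
FPKM + 1 of Flt3 (black) and of the 5 genes with the nearest profile, in each of the 5 libraries on a log axis of base 2; lines only join the points of a gene. Flt3 and Nrgn are level over the controls and drop in both knockouts, and Lrrc43 reaches the bottom of the axis.

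Genes that carry the receptor signal did not move in 1 direction. Taking the adaptor, PI3K and AKT, RAS and MAP kinase, STAT and SRC, and negative regulator lists together, a grouping made after their values were seen, 75 genes were tested, 11 rose and 9 fell, and their median change was 0.0051. That is 26.7% called, against 9.79% of all genes tested. Without control replicate 1 the counts were 19 and 17, or 48.0% against 29.8% of all genes. By list, they became 5 higher and 4 lower for adaptors, 3 and 6 for PI3K and AKT, 3 and 0 for RAS and MAP kinases, 2 and 3 for STAT and SRC, and 6 and 4 for negative regulators. The counts that follow are with all libraries.

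Among 18 adaptors and exchange factors tested of 20, 5 rose and 3 fell, with a median of -0.091. Rasgrp4, a RAS exchange factor gene of mast and myeloid cells, rose from 2.66 ± 0.482 (SD, n = 3) to 7.76 ± 0.972 FPKM (SD, n = 2; limma adjusted p = 0.0173). Rasgrp2 rose from 77.7 ± 2.76 to 122 ± 6.43 FPKM, Vav1, an exchange factor gene of blood cells, from 60.5 ± 1.13 to 85.8 ± 3.98 FPKM, and Grap2, which encodes an adaptor of the GRB2 family, from 0.542 ± 0.132 to 1.76 ± 0.0179 FPKM. Grap2 passed the filter only through the knockouts. Sos1, the exchange factor that GRB2 brings to active receptors, fell from 8.35 ± 0.676 to 5.37 ± 0.0619 FPKM, and Plcg1, which encodes a phospholipase C that binds active receptors, from 23.1 ± 2.62 to 13.9 ± 0.685 FPKM. Ptpn11, the gene of the phosphatase SHP2 that works downstream of FLT3 and KIT, stood at 39.4 ± 1.62 and 35.5 ± 0.202 FPKM (adjusted p = 0.246).

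The kinase lists were likewise mixed. Of 16 PI3K and AKT genes tested of 18, 2 rose and 2 fell (median 0.0079). Akt1 rose from 131 ± 6.35 (SD, n = 3) to 175 ± 0.938 FPKM (SD, n = 2; limma adjusted p = 0.0409). Of the PI3K catalytic subunit genes Pik3cb rose from 13.7 ± 1.28 to 20.1 ± 0.995 FPKM and Pik3cg fell from 23.8 ± 0.271 to 18.3 ± 0.412 FPKM. All 13 RAS and MAP kinase genes were tested and Rasa2, which encodes a RAS GTPase-activating protein, was the 1 called, rising from 3.97 ± 0.413 to 6.45 ± 0.622 FPKM (median 0.14). Of 9 STAT and SRC-type kinase genes tested of 13, Fyn fell from 21.2 ± 3.99 to 5.47 ± 0.428 FPKM (adjusted p = 0.0131) and Fes rose from 40.2 ± 1.04 to 52.6 ± 0.790 FPKM (median -0.033). The STAT5 genes, mediators of mutant FLT3 signalling, had both knockouts below every control and were not called with all libraries. Stat5a stood at 21.7 ± 1.06 and 17.3 ± 0.277 FPKM (adjusted p = 0.0672) and Stat5b at 20.4 ± 1.82 and 14.4 ± 0.909 FPKM (adjusted p = 0.054). Without control replicate 1 this list had 3 genes called lower, and which genes these were is not given here.

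Of 19 negative regulators tested of 20, 2 rose and 3 fell (median 0.10). Socs2, a feedback inhibitor that binds FLT3, fell from 39.2, 33.7 and 30.3 FPKM to 13.6 and 11.9 FPKM (limma adjusted p = 0.0131), with no overlap between the groups. In the same list Cish had both knockouts above every control and was not called (limma adjusted p = 0.172). Socs3 and Socs6 had both below and were not called either (limma adjusted p = 0.119 and 0.0833). Ptprj, the gene of a receptor phosphatase that acts on FLT3, fell from 9.36 ± 0.186 (SD, n = 3) to 5.81 ± 0.270 FPKM (SD, n = 2), and Sla2, an adaptor that recruits the CBL ligase, from 4.82 ± 0.999 to 1.67 ± 0.212 FPKM. Dok1, which encodes a docking protein that restrains RAS, rose from 12.4 ± 0.721 to 17.0 ± 0.868 FPKM, and Ubash3a from 11.7 ± 1.14 to 17.7 ± 1.009 FPKM. The ubiquitin ligase gene Cbl (adjusted p = 0.253) and Sh2b3, the inhibitor LNK of KIT and FLT3 signalling (adjusted p = 0.993), were not called.

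Of 3 genes tested that release receptors and ligands of this class from the cell surface, Adam17, a sheddase of CSF1R and KIT, fell from 55.9 ± 2.91 (SD, n = 3) to 42.2 ± 0.957 FPKM (SD, n = 2; limma adjusted p = 0.0429), and Rhbdf2, which encodes the protein that carries ADAM17 to the surface, rose from 7.88 ± 1.43 to 15.6 ± 1.16 FPKM (adjusted p = 0.0332). The Adam17 call held in 8 of 17 alternatives and was lost, among others, after median-ratio scaling (adjusted p = 0.061) and quantile normalization (adjusted p = 0.0647). With all libraries 66.7% of these 3 genes were called, against 9.79% of all genes tested. Without control replicate 1 the list had 1 called higher and 2 lower, where 29.8% of all genes tested were called. Of 16 transcription factor genes linked to these receptors, 4 rose and 3 fell (median -0.22), 43.8% called against 9.79% of all genes tested. Without control replicate 1, 4 rose and 5 fell, where 29.8% of all genes tested were called. Sfpi1, the gene of PU.1, which acts at the Csf1r and Flt3 genes, rose from control values of 75.7, 76.5 and 85.4 FPKM to 171 and 163 FPKM (adjusted p = 0.00853). Mef2c, Irf8 and Hoxa9 fell, with log2 changes of -2.38, -1.74 and -1.36, and Lmo2, Gata1 and Gata2 rose, with 0.79, 0.56 and 0.38. Irf8 passed the filter only through the controls. Runx1 (adjusted p = 0.111), Cebpa (adjusted p = 0.154), Meis1 (adjusted p = 0.269) and Myb (adjusted p = 0.33) were not called.

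**Figure D5:**
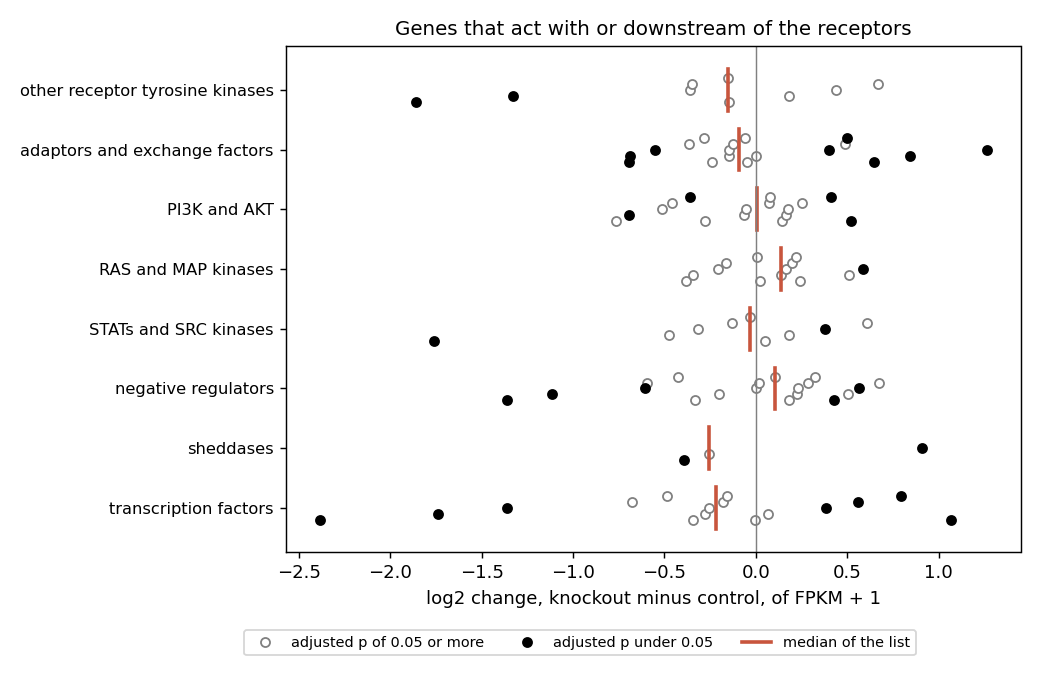
Log2 change of the tested genes of each list on the log2(FPKM + 1) scale; each point is a gene, filled where its limma adjusted p is under 0.05, and red bars are list medians. Called genes lie on both sides of 0 in most lists, with medians between -0.26 for the 3 sheddase genes and 0.14 for the RAS and MAP kinases.

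Markers of cells that depend on these receptors were read beside them. Dendritic cells need FLT3, and 8 of 10 dendritic markers were below 1 FPKM in all libraries, with Cd209a and Siglech listed at 0; without Flt3, the summed level was 5.05 to 6.29 FPKM in control cells, against 1.12 and 1.26 FPKM in knockout cells, and most of it was Irf8. Mast cells need KIT, and the sum of 9 mast cell and basophil markers other than Kit was 763 to 1009 FPKM in control cells, against 1460 and 1486 FPKM in knockout cells. Most of that sum was Cpa3, which was not called (limma adjusted p = 0.0581). Of the 8 tested in that list, Kit included, 3 rose and none fell (37.5% called, against 9.79% of all genes tested). Kit itself was the 1 with a negative change. Lymphoid markers were below 1 FPKM in every library. Of the 8 progenitor markers all were tested, with 2 rising (Mpo and Prtn3) and 1 falling (Cd34), also 37.5% called. The part of any such shift of cell types in the values of Flt3 and Kit was not tested.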

How the data were processed

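The deposited values are FPKM, 1 per Ensembl gene and library, made by the authors; the tools were GSNAP, Cuffdiff, SAMtools and CASAVA 1.8.2 with mm9 as build, per the submitters' processing notes. RNA was made into stranded mRNA libraries, per the labels' protocols. For the annotation, strand use and multiply mapped reads nothing is stated in these sources. In 16 of 31626 genes a library held 999999999, no FPKM; these genes were left out (31610 used). Of the rest, 11780 reached 1 FPKM in at least 2 of 5 libraries and entered limma (version 3.58.1, under R 4.3.3) as log2(FPKM + 1), with eBayes trend, all 5 libraries (3 control, 2 knockout) and Benjamini-Hochberg adjustment over all genes tested. FPKM hold no counts, so no count model was used and precision from depth is unknown. Ratios and Mll1 were tested by exact permutation. The limma step was tested on simulated data. Members and lists were chosen with earlier results of these data known. Named were the family, its other ligands, the VEGF receptors, Mll1, up to 6 called genes of each list by smallest p, leading markers, neighbours of called members and the 5 genes nearest in profile to Flt3 and to Kit; further genes named with values were chosen after these were seen, and 1 gene that the rule would name is not reported here. Mtor, Fer and Cxcr2 had no row under these names and are not analysed here. Promoters (6 of 8 symbols matched) came from RefSeq on GRCm38.p6. Alternatives covered the pseudocount, filter, scaling, empirical Bayes step, library weights, the replicate number as a block, shared symbols, the threshold and each library left out; a correction for transcript length and GC content (known for 95.1% of tested genes) and list counts without control replicate 1 were added after seeing the data.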

Additional observations from a re-analysis of the deposited data

How the results depend on the processing

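Flt3 kept its direction in all 17 alternatives and its call in 16; the exception was the fit without knockout replicate 2, and its log2 change ran from -3.40 to -2.82. Kit was negative in all 17 (-0.63 to -0.23) and called in none. Flt3l was negative in all 17 and called in 11. Pdgfrb and Csf1 kept their direction in all 16 fits that held them; the filter at a mean of 5 FPKM removes both. Outside the family, 34 called genes were followed through the alternatives. Each kept its direction in every fit that contained it, but each kept its call in only 8 to 16 alternatives. The calls lost were 14 with no filter, 1 (Adam17) after median-ratio scaling, 4 (Adam17, Fes, Pik3cg and Sos1) after quantile normalization, 4 (Adam17, Dok1, Pik3cb and Pik3cg) in empirical Bayes without trend, 1 (Sos1) with the length and GC correction, and 29 with the replicate block. Leaving out 1 library lost 28 without control replicate 2, 24 without control replicate 3, 33 without knockout replicate 1, 34 without knockout replicate 2 and 0 without control replicate 1.

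Without replicates in turn, Flt3 ran from -3.40 to -3.13 and Flt3l from -0.64 to -0.51; Pdgfrb ran from -0.69 to -0.34 and Kit from -0.63 to -0.24; Csf1 ran from 0.054 to 0.42. Members called lower ran from 0 to 2, and genes called from 0 to 1398 higher and 0 to 2118 lower. Leaving out control replicate 1 gave 1398 and 2118. With control replicate 2 left out they were 45 and 66, with control replicate 3 left out 70 and 134, with knockout replicate 1 left out 3 and 4. Dropping knockout replicate 2 gave 0 and 0 (limma; 1669 at an unadjusted p under 0.05). A lone knockout library was assumed to vary like the controls.

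Against 450 higher and 703 lower genes, no filter gave 238 and 259 with 1 member called and Flt3l at -0.57 (adjusted p = 0.0704). Library weights gave 1773 and 2616 and called Pdgfrb (-0.57). An adjusted p under 0.01 left 34 and 55 genes and 1 member. The length and GC correction gave 813 higher genes and 783 lower. The share of calls that were higher was 39.0%, and 49.0% after median-ratio scaling (597 and 621), 47.9% after quantile normalization (518 and 564) and 50.9% once length and GC were corrected for; no scaling moved the median of all genes by over 0.1. The replicate block, which pairs replicates 1 and 2 of both groups, left 12 higher and 43 lower genes and 1 member, with Flt3l at -0.60 (adjusted p = 0.167) and Flt3 at -3.33 (adjusted p = 0.0357). Same-numbered libraries did not deviate together (correlations 0.037 and 0.0123), so the numbers were not taken as pairs. The cause of these shifts was not tested. Depth limits the genes far under 1 FPKM most: Kitl, Pdgfra, Il34 and the PDGF ligand genes.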
